A study of Mus musculus with 12 samples.

Results

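The dermal papilla and its embryonic forerunner, the dermal condensate, are marked by a small set of transcription factors, and 9 of them are described here: Twist1, Twist2, Tbx15, Tbx18, Alx4, Sox18, Sox2, Prdm1 and Trps1. They were chosen by name, and each matched exactly 1 of the 24692 entries in the expression table. The table holds 12 RNA sequencing libraries from back skin of male mice at postnatal day 26 to 27, in early anagen, when hair follicles begin to regrow. All mice carried a green fluorescent reporter tied to Sox2 and a red one tied to alpha smooth muscle actin (strain label Sox2:GFP/aSMA:dsRed). Skin was digested with dispase and collagenase, stained with antibodies that the labels leave unnamed, and sorted by flow cytometry into 4 populations with 3 libraries each. These are hair follicle dermal stem cells (replicates 1, 2 and 4), dermal papilla (1, 2 and 4), dermal sheath (1, 4 and 5) and interfollicular dermis (1, 2 and 6). Dermal sheath replicate 1 has a title of its own form (DSL1), which the labels do not explain. Every population came from the same reporter strain, and there was no group without the reporters. Sox2 was one of the genes whose reporter was used in the sort, so its level is not independent of how the populations were drawn. The labels give neither the gates nor the animals behind each library. The spread that every p-value rests on is that among these 3 libraries per population, and it may be technical.

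The dermal papilla is the cluster of mesenchymal cells at the base of the hair follicle that signals to the epithelium above it. The dermal sheath wraps the outside of the follicle, and dermal stem cells at its lower end renew the sheath and supply cells to the papilla. Transcription factors of the condensate and papilla belong to several families. Twist1 and Twist2 are basic helix-loop-helix factors of mesenchyme that bind DNA at E-boxes, Tbx15 and Tbx18 are T-box factors, Alx4 is a paired-type homeodomain factor, Sox2 and Sox18 are HMG-box factors, Prdm1 (Blimp1) is a zinc finger repressor and Trps1 an atypical GATA-type repressor. Several also act outside the dermis: Sox18 in blood and lymph vessels, Sox2 in Merkel cells of the epidermis, Prdm1 in keratinocytes and sebaceous glands, and Trps1 in the hair epithelium.

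Values are FPKM, mapped fragments scaled by transcript length and library total, as the authors deposited them, so levels of different genes can be compared per length. Absolute depth is unknown. Relative depth, read from the steps between low values, spanned 3.03-fold over the 12 libraries, and 10711 to 11810 genes per library reached 1 FPKM. Differences between populations are given as log2(FPKM + 1), a scale that understates changes of low genes, and p-values are adjusted p-values from limma over the 12774 genes that reached 1 FPKM in at least 3 libraries. All 9 factors passed that filter, but Sox2 and Tbx18 did so through dermal stem cell and papilla libraries alone, since neither reached 1 FPKM in any sheath or interfollicular library. No factor was listed at 0 in any library. Between papilla and stem cells the median gene differed by -0.25 as deposited and by -0.07 after median-of-ratios scaling, and between the 6 stem cell and papilla libraries and the other 6 it differed by -0.25 and -0.01.

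Although named as dermal populations, sheath and interfollicular dermis held far less fibroblast marker RNA than stem cells and papilla. No list of dermal sheath markers was examined, so whether that label holds was not tested. The 10 dermal fibroblast markers (Col1a1, Pdgfra, Vim and others) summed to 9585 to 12120 FPKM in stem cells and 13340 to 23990 in papilla, but to 989 to 1939 in the libraries labelled dermal sheath and 837 to 1570 in those labelled interfollicular dermis. Of the 12 keratinocyte markers, 9 were lower in the stem cell and papilla libraries than in the other 6 and 2 were higher, beside 36.2% and 22.4% of all genes. With median-of-ratios scaling, and also without the low-value filter, 6 rather than 9 were lower. The 2 higher were Krt1 and Krt10, keratins of differentiated epidermis, and Krt1 averaged 438 ± 227 FPKM in papilla and 78 ± 13.1 in stem cells against 10.5 ± 10.4 in sheath and 16.5 ± 16 in interfollicular dermis. Trp63, a regulator of basal keratinocytes, averaged 121 ± 24.1 and 89 ± 11.7 FPKM (SD, n = 3, as for all means here) in sheath and interfollicular dermis against 15.5 ± 5.84 in stem cells and 16.1 ± 8.04 in papilla. Every contrast of the factors with these 6 libraries is therefore also a contrast in fibroblast content, and the cause of a lower value cannot be told apart. In sorted pools, fewer cells that express a gene and less RNA per cell cannot be told apart either.

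The factors differed widely among the 4 populations. By limma's F test 8 of the 9 differed (all but Trps1), beside 56.8% of all genes tested. Averaged over the 6 stem cell and papilla libraries and set against the other 6, the same 8 factors were higher and none was lower, beside 58.5% of all genes called, 22.4% higher and 36.2% lower. The factors' median difference was 1.65, against -0.25 for all tested genes. For Twist1, Twist2, Tbx15, Tbx18, Alx4 and Sox2, every stem cell and papilla library lay above every sheath and interfollicular library, a pattern found in 10% of the genes tested. All these counts include Sox2 and Tbx18. Both passed the low-value filter through stem cell and papilla libraries alone, which favours this direction, so they add no independent support.

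**Figure D1:**
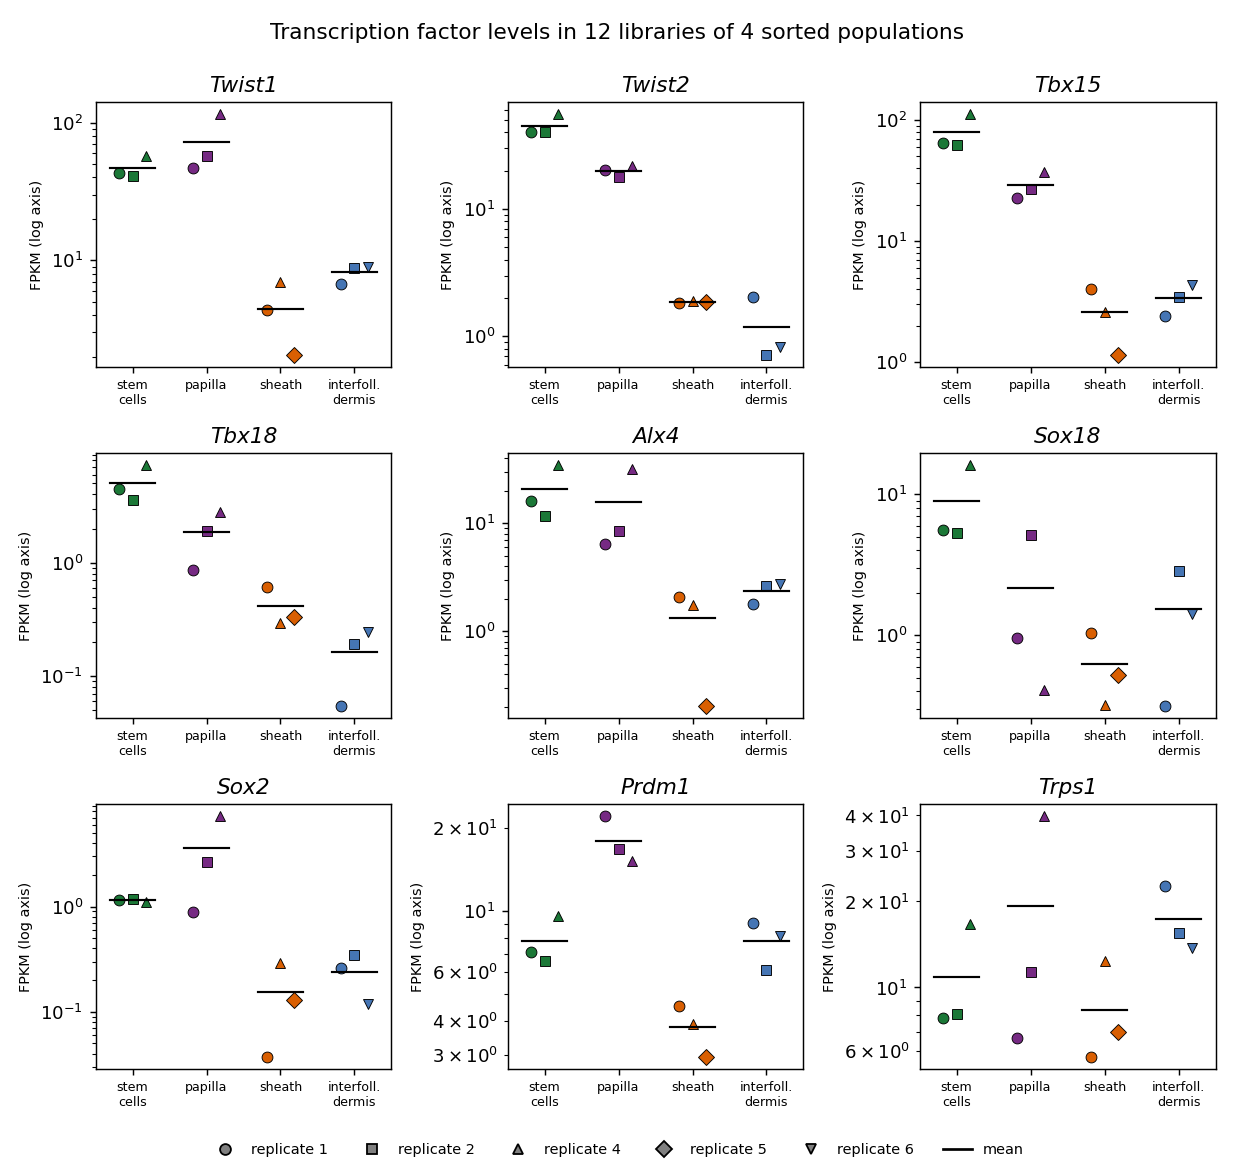
FPKM of the 9 transcription factors in each library (log axis), grouped by sorted population, with 1 symbol per replicate number and a bar at the mean. Twist2 falls from 40.1 to 55.1 FPKM in stem cells to 17.8 to 21.6 in papilla and at most 2.05 elsewhere, whereas the papilla range of Trps1, 6.66 to 39.7, overlaps each other population.

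Twist1 (chromosome 12, 33957671 to 33959829, plus strand; mm10 coordinates, GENCODE M21) was the most abundant of the 9 factors in papilla. It measured 43.2, 40.9 and 57.6 FPKM in stem cell replicates 1, 2 and 4, and 46.5, 56.9 and 114.7 in papilla replicates 1, 2 and 4. The sheath libraries had 4.33, 6.96 and 2.06 FPKM (replicates 1, 4 and 5), and the interfollicular libraries 6.78, 8.83 and 9 (replicates 1, 2 and 6). The stem cell and papilla values overlapped, and all 6 lay above the others. Twist1 was higher in papilla than in sheath (difference 3.75, SE 0.37, adjusted p = 1.04e-05), and than in interfollicular dermis (2.90, adjusted p = 9.28e-05), and higher in stem cells than in either (3.24 and 2.38). Its difference between papilla and stem cells did not pass (0.52, SE 0.37, adjusted p = 0.405).

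Twist2 (chromosome 1, 91801461 to 91848028, plus strand), the paralog of Twist1, had the largest F statistic of the 9. Its levels were 40.1, 40.1 and 55.1 FPKM in stem cells and 20.3, 17.8 and 21.6 in papilla, in the same order of replicates. It stayed at 1.81 to 1.89 in sheath and 0.717 to 2.05 in interfollicular dermis. No stem cell library overlapped a papilla library, and no papilla library overlapped the remaining 6. Twist2 was lower in papilla than in stem cells (-1.13, SE 0.25, adjusted p = 0.0164) and higher in papilla than in sheath (2.87, adjusted p = 5.22e-06), and higher than in interfollicular dermis (3.30, adjusted p = 2.98e-06). The annotated antisense gene Gm29100 shares 1477 exonic bases with Twist2, and strand use in the authors' counting is not given in the sources used here, so reads of the pair cannot be told apart. None of the 50-base stretches of the longest Twist1 transcript occurs in a transcript of another gene.

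The balance of the Twist pair separated the stem cell libraries from the papilla libraries. The ratio of Twist1 to Twist2 was 1.08, 1.02 and 1.04 in stem cell replicates 1, 2 and 4, and 2.29, 3.19 and 5.31 in the papilla libraries. On the log2 scale this ratio averaged 1.76 ± 0.61 in papilla and 0.07 ± 0.04 in stem cells (SD, n = 3), a difference of 1.69. The 2 groups did not overlap (exact permutation test, two-sided, p = 0.1, the smallest p that 3 against 3 libraries allow). This test treats the libraries as independent, although same-numbered stem cell and papilla libraries deviated together across genes. In sheath the ratio ran from 1.10 to 3.69 and in interfollicular dermis from 3.32 to 12.3, from Twist2 values near or below 2 FPKM. This ratio and the next were singled out after their values were seen. Twist1 also stood below Tbx15 in stem cells alone, at 0.518 to 0.671 times its level, against 2.05 to 3.08 in papilla, 1.08 to 2.70 in sheath and 2.07 to 2.82 in interfollicular dermis.

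**Figure D2:**
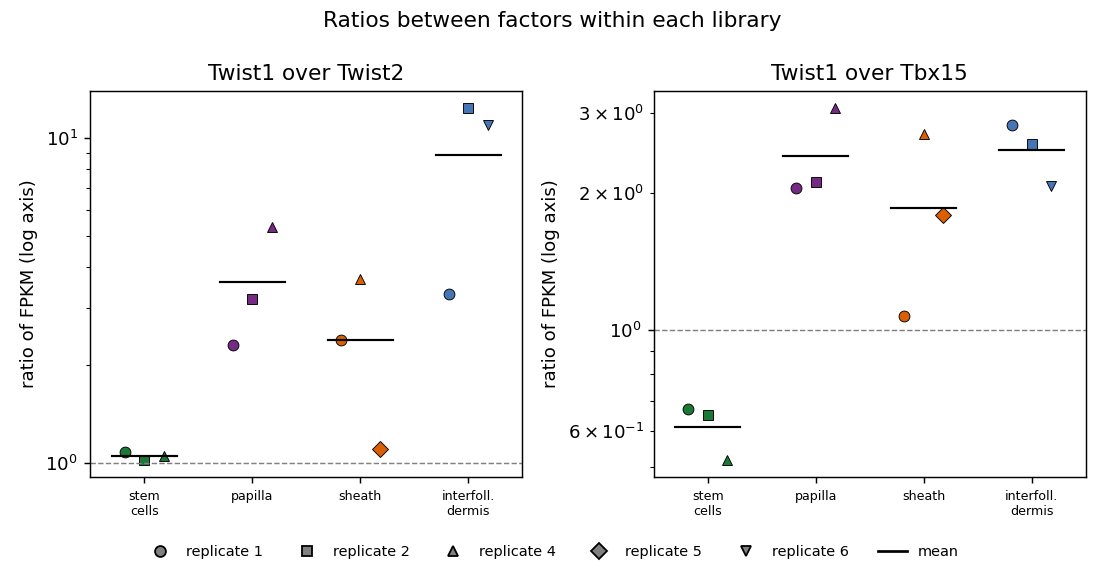
Ratios of FPKM within each library (log axis), Twist1 over Twist2 on the left and Twist1 over Tbx15 on the right, with 1 symbol per replicate number and a bar at the mean; the dashed line marks equal levels. The 3 stem cell libraries lie between 1.02 and 1.08 on the left and below 1 on the right, while all 3 papilla libraries lie above 2 in both.

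RefSeq promoters on GRCm38.p6 were at hand for 5 of the 9 factors (Twist1, Twist2, Tbx18, Sox2 and Prdm1). The 250 bases before the start of Twist1 (chr12:33957421-33957670, plus strand) and Twist2 (chr1:91801211-91801460, plus strand) are printed. The pair was picked because its ratio did not overlap between the stem cell and papilla libraries. Capitals mark the CCAAT motif, searched on both strands.
Twist1: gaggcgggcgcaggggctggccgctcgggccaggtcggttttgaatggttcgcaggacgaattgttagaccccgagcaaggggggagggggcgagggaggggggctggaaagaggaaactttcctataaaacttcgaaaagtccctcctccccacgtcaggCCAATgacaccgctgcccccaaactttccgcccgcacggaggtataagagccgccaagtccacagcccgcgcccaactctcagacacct
Twist2: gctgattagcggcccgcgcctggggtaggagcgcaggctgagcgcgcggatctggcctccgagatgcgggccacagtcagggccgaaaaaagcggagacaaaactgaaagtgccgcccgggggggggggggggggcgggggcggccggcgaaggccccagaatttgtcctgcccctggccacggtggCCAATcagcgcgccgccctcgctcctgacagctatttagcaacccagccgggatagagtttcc
Each holds 1 CCAAT match, whose first base lies 89 bases before the start in Twist1 and 63 in Twist2. Twist1 also holds a TATAAA match 126 bases before the start, and Twist2 holds none. A CCAAT match (either strand) is present in all 5 promoters and in 33.8% of the 32851 promoter windows of this length, and a TATAAA match in 1 of 5 and 12.4%. The E-box CANNTG, which Twist proteins bind, is present in 2 of 5 (Tbx18 and Prdm1) and in 66.2% of all windows. The CCAAT and CANNTG matches share no bases in these promoters. GC content was 62.4% for Twist1 and 68.8% for Twist2, against a median of 52.4% over all windows. A match is a description of letters and not a mapped binding site.

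Both T-box factors were highest in dermal stem cells. Tbx15 (chromosome 3, 99240381 to 99354259, plus strand), which patterns dorsal and ventral skin, measured 64.3, 62.8 and 111.1 FPKM in stem cell replicates 1, 2 and 4. Papilla had 22.7, 26.9 and 37.3 FPKM, sheath 4.02, 2.58 and 1.15 (replicates 1, 4 and 5) and interfollicular dermis 2.40, 3.44 and 4.35. The order of stem cells, then papilla, then the rest held without overlap. Tbx15 was lower in papilla than in stem cells (-1.40, SE 0.34, adjusted p = 0.0234) and higher in papilla than in sheath (3.12, adjusted p = 2.05e-05). Its difference between stem cells and sheath, 4.52 (SE 0.34, adjusted p = 1.62e-06), was the largest pairwise difference of any of the 9 factors.

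Tbx18 (chromosome 9, 87702800 to 87731260, minus strand), a marker of condensate and papilla lineages, followed the same order of stem cells and papilla at lower levels. It measured 4.44, 3.59 and 7.20 FPKM in stem cells and 0.866, 1.90 and 2.78 in papilla. Sheath libraries had 0.613, 0.292 and 0.330 FPKM, and interfollicular libraries 0.0546, 0.191 and 0.246. No 2 populations overlapped. Tbx18 was lower in papilla than in stem cells by a narrow margin (-1.11, SE 0.32, adjusted p = 0.0478) and higher in papilla than in sheath (0.96, adjusted p = 0.0233). Those calls both ended in the model with the replicate number as a block (adjusted p = 0.0658 and 0.0687). The first also ended on leaving out any library but papilla replicate 4 (adjusted p up to 0.162). The second also ended on leaving out papilla replicate 2 or 4 or sheath replicate 4 or 5 (up to 0.0818). With quantile normalization the second ended as well (0.90, adjusted p = 0.0527). The ratio of Tbx15 to Tbx18 was 14.5 to 17.5 in stem cells and 13.4 to 26.2 in papilla, overlapping ranges, and 3.48 to 8.81 in sheath. The overlapping gene D030062O11Rik on the opposite strand shares 970 exonic bases with Tbx18, so its reads may be counted in it.

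Alx4 (chromosome 2, 93642384 to 93681339, plus strand), a homeodomain factor of limb, skull and hair follicle mesenchyme, was shared by stem cells and papilla. Stem cell replicates 1, 2 and 4 had 16.1, 11.7 and 34.2 FPKM, and papilla replicates 1, 2 and 4 had 6.37, 8.40 and 32.1. Sheath ranged from 0.205 to 2.08 FPKM and interfollicular dermis from 1.78 to 2.71. Papilla and stem cells overlapped and did not differ past the threshold (-0.58, SE 0.55, adjusted p = 0.548), while papilla was higher than sheath (2.60, adjusted p = 0.00199) and higher than interfollicular dermis (1.98, adjusted p = 0.0123). The replicate numbered 4 was the highest in both populations.

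Sox18 (chromosome 2, 181669836 to 181671640, minus strand) was highest in stem cells, with a wide spread. It measured 5.60, 5.32 and 16.0 FPKM there, and 0.961, 5.15 and 0.406 in papilla. Sheath libraries had 1.04, 0.322 and 0.526 FPKM and interfollicular libraries 0.316, 2.88 and 1.42. All stem cell libraries lay above all others, but papilla replicate 2 came close to the lowest of them. Sox18 was higher in stem cells than in sheath (2.48, SE 0.57, adjusted p = 0.00387) and than in interfollicular dermis (1.95, adjusted p = 0.0173). The second call ended without stem cell replicate 4 (adjusted p = 0.0724), without interfollicular replicate 1 (0.079) and without the low-value filter (0.0534). The difference between papilla and stem cells did not pass (-1.80, SE 0.57, adjusted p = 0.0704), and did without papilla replicate 2 (-2.43, adjusted p = 0.0192).

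Since Sox18 is also an endothelial factor, the 13 vascular endothelial markers (Pecam1, Cdh5, Kdr and others) were set beside it. Of the 12 tested, 1 differed among the populations (Tek, which averaged 9.54 ± 1.57 FPKM in stem cells). Their summed level was 126, 99.9 and 30.5 FPKM in stem cell replicates 1, 2 and 4, lowest in the library with the most Sox18. In papilla the sums were 113, 185 and 18.2, highest where Sox18 was highest and lowest where it was lowest. The range was 18.7 to 73.2 in sheath and 37.8 to 138 in interfollicular dermis. None of the 13 was at 0 in every library. All 4 tested lymphatic endothelial markers (of 6) differed among the populations, beside 56.8% of all genes. Lyve1 averaged 28.6 ± 29.2 FPKM in stem cells, 8 ± 6.71 in papilla, 0.92 ± 0.664 in sheath and 8.39 ± 1.2 in interfollicular dermis. Mmrn1, Flt4 and Reln were instead highest in interfollicular dermis. The part of vascular or lymphatic endothelial RNA in the Sox18 levels was not tested. The related endothelial factor Sox7 averaged 3.54 ± 1.93 FPKM in stem cells, 6.54 ± 5.83 in papilla, 1.82 ± 1 in sheath and 6.14 ± 1.34 in interfollicular dermis, and Sox17 stayed below 1 on average in each.

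**Figure D3:**
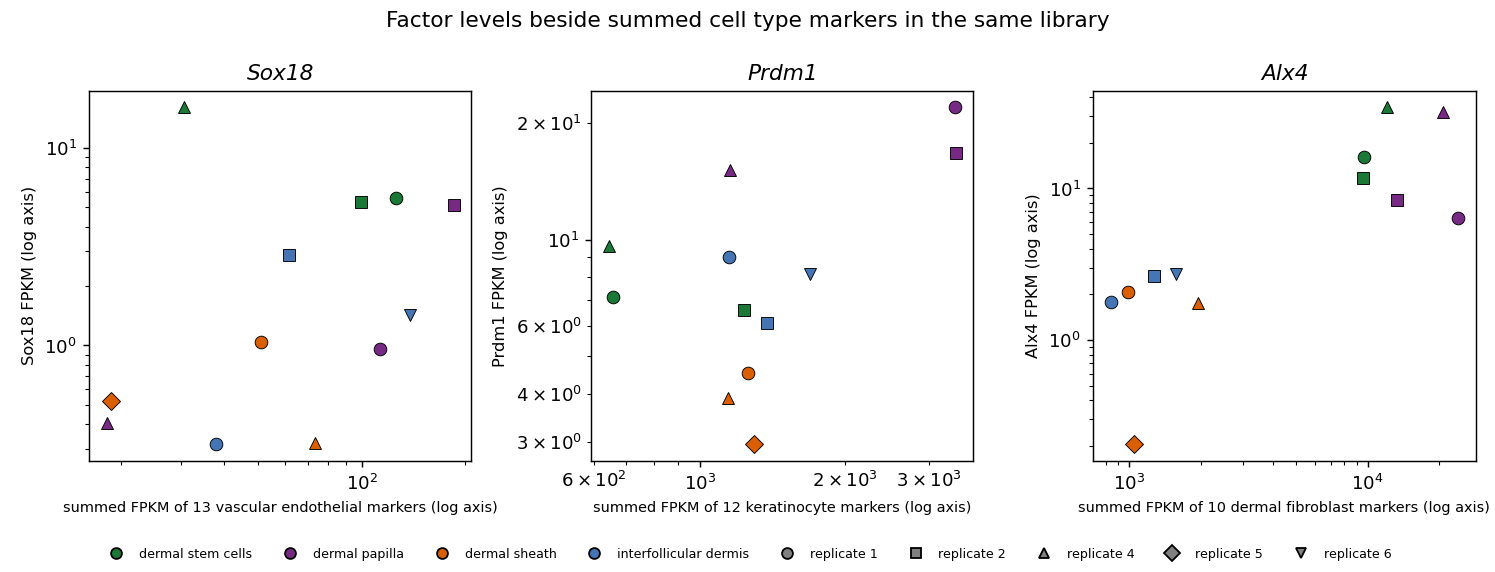
Each panel plots the FPKM of a factor against the summed FPKM of a marker list in the same library (both log axes), coloured by population and shaped by replicate number: Sox18 with vascular endothelial, Prdm1 with keratinocyte and Alx4 with dermal fibroblast markers. The highest Sox18 point (16.0 FPKM, stem cells replicate 4) has an endothelial sum of 30.5, and papilla replicate 4 has 15.2 FPKM of Prdm1 at a keratinocyte sum of 1154, within the range of the other populations.

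Sox2 (chromosome 3, 34650405 to 34652461, plus strand), which marks the papilla of some hair types and whose reporter entered the sort, was low everywhere. The papilla libraries had 0.882, 2.66 and 7.17 FPKM and the stem cell libraries 1.15, 1.17 and 1.11. Papilla replicate 1 thus lay below all stem cell libraries, while the other two lay above. The remaining libraries ranged from 0.0373 to 0.345 FPKM. Sox2 was higher in papilla than in sheath (1.74, SE 0.41) and interfollicular dermis (1.63), and its difference from stem cells did not pass (0.84, adjusted p = 0.227) except without papilla replicate 1 (1.35, adjusted p = 0.0417). Stem cells against sheath gave 0.90 (adjusted p = 0.0961), which passed with a pseudocount of 0.1 (2.43, adjusted p = 0.0222) and without papilla replicate 1 (0.0328) or 4 (0.0201). Sox2ot, the long noncoding gene that contains Sox2 on the same strand, read 0 to 0.296 FPKM and shares no exonic base with it. Of the Merkel cell markers, Atoh1 averaged 0.00524 FPKM in stem cells and was listed at 0 in the other 9 libraries. Isl1, Krt8, Pou4f3 and Chga averaged at most 0.272 in any population. Piezo2 averaged 4.34 FPKM in papilla (1.533 to 8.515), 0.86 in stem cells, 0.26 in sheath and 0.70 in interfollicular dermis. Like Sox2, it was called higher in papilla than in the last 2 populations (1.88 and 1.46). Against stem cells it did not pass (1.33, limma adjusted p = 0.0733). Krt18 was instead highest in sheath (1.51 ± 0.24) and averaged at most 0.411 elsewhere. The part of Merkel cell RNA in the Sox2 levels was not tested. The sum of all 8 markers was 11.3 to 29.2 FPKM in stem cells and 6.28 to 12.6 in papilla against 1.79 to 3.93 in the rest, most of it in stem cells from Krt20 (21.8 ± 10.5).

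Prdm1 (chromosome 10, 44437177 to 44528501, minus strand) was the factor highest in papilla against each other population. It measured 22, 16.8 and 15.2 FPKM in papilla, 7.11, 6.58 and 9.61 in stem cells, 4.53, 3.89 and 2.96 in sheath and 9.03, 6.08 and 8.14 in interfollicular dermis. Every papilla library lay above every other library, while stem cells and interfollicular dermis overlapped. Papilla exceeded stem cells by 1.11 (SE 0.24, adjusted p = 0.0152), sheath by 1.98 (SE 0.24, adjusted p = 5.01e-05) and interfollicular dermis by 1.12 (adjusted p = 0.00326). Only 1.35% of tested genes were higher in papilla in all 3 comparisons. The call against stem cells ended without stem cell replicate 1 or 2 or papilla replicate 1 (adjusted p = 0.0652, 0.0659 and 0.0559). Stem cells were also higher than sheath (0.87, adjusted p = 0.0123), a call lost without stem cell replicate 4 (0.0564) or sheath replicate 5 (0.0535).

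The 12 keratinocyte markers summed to 3389, 3412 and 1154 FPKM in papilla replicates 1, 2 and 4, against 644 to 1234 in stem cells and 1144 to 1690 in the other 6 libraries. Of the 12, 3 were higher in papilla than in stem cells. Ovol1 was among them, at 9.9 to 33.3 FPKM in papilla against 5.14 to 8.27 in stem cells (limma adjusted p = 0.0142). Krt10 did not pass, at 1528 ± 830 FPKM in papilla and 361 ± 135 in stem cells (adjusted p = 0.0932). Every papilla library still lay above every stem cell library for Krt10 (lowest 571 against highest 516) and Krt1 (216 against 92.9). Trp63 overlapped between papilla and stem cells. Papilla replicate 4 had the lowest Prdm1 of its group, 15.2 FPKM, above the 9.61 of the highest stem cell library. Its keratinocyte sum was below that of stem cell replicate 2, but that sum mixes basal and differentiated markers. The part of keratinocyte RNA in the Prdm1 difference was not tested. Of the 6 tested sebocyte markers (of 9), 1 was higher in papilla than in stem cells, a call lost without the low-value filter. It was Far2, at 4.77 ± 0.0517 FPKM against a listed 0 in all 3 stem cell libraries (adjusted p = 0.0234). Far2 was highest in interfollicular dermis, at 9.6 ± 3.58 FPKM. Pparg averaged 8.02 ± 0.755 FPKM in stem cells and 8.69 ± 3.98 in papilla, and Mc5r 3.83 ± 5.03 and 16.3 ± 12.9.

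The 250 bases before the RefSeq starts of Sox2 (chr3:34649745-34649994, plus strand) and Prdm1 (chr10:44458749-44458998, minus strand) are printed for the reporter gene of the sort and the factor higher in papilla than in each other population, again with CCAAT on either strand in capitals.
Sox2: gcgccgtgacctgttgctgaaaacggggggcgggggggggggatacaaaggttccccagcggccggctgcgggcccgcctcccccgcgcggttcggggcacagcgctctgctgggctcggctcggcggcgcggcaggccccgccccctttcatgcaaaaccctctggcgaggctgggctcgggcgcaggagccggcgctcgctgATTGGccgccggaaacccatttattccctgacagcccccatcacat
Prdm1: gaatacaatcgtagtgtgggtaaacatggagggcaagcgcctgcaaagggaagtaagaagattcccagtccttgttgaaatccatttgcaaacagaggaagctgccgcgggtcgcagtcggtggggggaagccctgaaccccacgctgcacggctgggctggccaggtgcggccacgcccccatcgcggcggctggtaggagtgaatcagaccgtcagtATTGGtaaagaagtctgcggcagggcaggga
The match begins 46 bases before the start in Sox2 and 31 in Prdm1, and in Tbx18 it begins 87 bases before. The Prdm1 window lies within the GENCODE gene span, at an internal start. T-box (AGGTGTG) matches were found in 0 of the 5 promoters and 5.1% of all windows.

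Trps1 (chromosome 15, 50654752 to 50890463, minus strand), whose loss causes sparse hair, was the factor that did not differ among populations (F test adjusted p = 0.302). Stem cells had 7.81, 8.10 and 16.7 FPKM, papilla 6.66, 11.3 and 39.7, sheath 5.72, 12.4 and 6.96 and interfollicular dermis 22.7, 15.5 and 13.7. Stem cells and papilla overlapped each other and both other populations, papilla alone spanned 5.95-fold, and every sheath library lay below every interfollicular library (limma adjusted p = 0.387, not past the threshold). With the replicate number as a block the F test passed (adjusted p = 0.0238) and stem cells were lower than interfollicular dermis (-1.28, adjusted p = 0.0218, against -0.68 and 0.326 without it). Replicate 5 occurs only in sheath and replicate 6 only in interfollicular dermis, so in that model these libraries add nothing to the contrasts. Interfollicular replicates 1 and 2 also did not clearly deviate with the same-numbered stem cell libraries (correlations across genes -0.191 and 0.05). Gata3, the GATA factor of hair epithelium, averaged 13 ± 6.56 FPKM in stem cells, 40.9 ± 27.6 in papilla, 71.3 ± 19 in sheath and 47.4 ± 6.66 in interfollicular dermis.

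Set pair by pair, the contrasts gave these counts. Against sheath, 7 of the 9 factors were higher in papilla (all but Sox18 and Trps1) and 7 higher in stem cells (all but Sox2 and Trps1), beside 16.4% and 19.6% of all genes. In those 2 contrasts 49.8% and 43.9% of all genes were called, 33.4% and 24.3% as lower. Against interfollicular dermis, 7 were higher in papilla (the same exceptions as against sheath) and 6 in stem cells (Twist1, Twist2, Tbx15, Tbx18, Alx4 and Sox18), beside 13.7% and 17.9%, with 42.3% and 37.6% called and 28.6% and 19.7% lower. None was lower in these 4 contrasts, which share libraries. Where Sox2 and Tbx18 are counted, the limit given above holds, since stem cell and papilla libraries alone brought them through the filter. Between sheath and interfollicular dermis limma called none of the 9, with 2 (Prdm1 and Twist1) at an unadjusted p under 0.05, and 2.26% of all genes were called (0.939% higher in sheath, 1.32% lower).

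Between papilla and stem cells, both rich in fibroblast markers, 1 factor was higher in papilla (Prdm1) and 3 were lower (Tbx15, Tbx18 and Twist2), beside 2.31% and 6.38% of all genes (8.69% in all). The same 3 were higher in stem cells than in each of the other populations, as were 3.53% of all genes. The 3 lower calls depended on scaling and on single libraries. With median-of-ratios scaling none of the 3 passed (Tbx15 -1.18, adjusted p = 0.0591; Tbx18 -0.96, 0.0993; Twist2 -0.91, 0.0551), nor with quantile normalization, although each kept its direction. Without stem cell replicate 4 none of the 3 passed (Tbx15 adjusted p = 0.089, Twist2 0.0728), and Tbx15 was also lost without stem cell replicate 1 (0.0532) or papilla replicate 1 or 2 (0.078 and 0.0595). Same-numbered stem cell and papilla libraries deviated together from their group means (correlations across genes 0.306, 0.241 and 0.389). With the replicate number as a block within these 6 libraries, an alternative chosen after seeing the data, all 4 calls were made (adjusted p = 0.0143 to 0.0228).

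**Figure D4:**
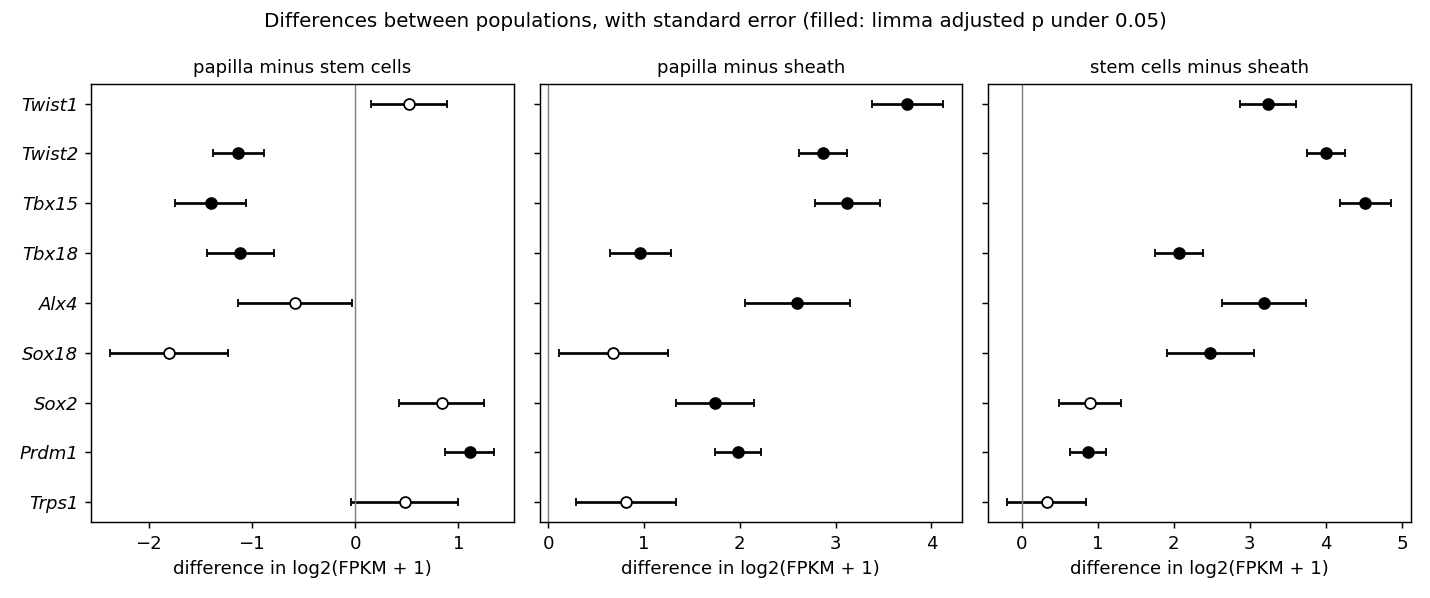
Differences in log2(FPKM + 1) with standard errors for the 9 factors in papilla minus stem cells, papilla minus sheath and stem cells minus sheath, from the model of 12 libraries; filled points have limma adjusted p under 0.05. In the left panel Prdm1 lies at 1.11 and Tbx15, Tbx18 and Twist2 lie at -1.40, -1.11 and -1.13.

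In stem cells and papilla most factors were highest in the library numbered 4. In stem cells 8 of the 9 (all but Sox2) were highest in replicate 4, the highest library for 32.2% of all tested genes, and in papilla 7 of the 9 (all but Sox18 and Prdm1), against 32.4%. In sheath, replicate 4 was highest for 4 of the 9 and replicate 1 for 5. These stem cell and papilla libraries held the least immune and lymphatic marker RNA of their groups and the most sebocyte marker RNA. They also held the least vascular endothelial, keratinocyte, hair matrix, melanocyte, Schwann cell and pericyte marker RNA of their groups. The hair matrix markers summed to 168 FPKM against 362.5 and 399 in stem cells, and to 101 against 300 and 1003 in papilla. Merkel cell markers were highest in papilla replicate 4 but not in stem cell replicate 4. The immune markers summed to 53.6 FPKM in stem cell replicate 4 against 1213 and 742 in replicates 1 and 2, and to 343 in papilla replicate 4 against 825 and 459. The sebocyte markers summed to 18.9 against 12 and 9.21, and to 47.9 against 17.5 and 29.2. The lymphatic markers summed to 5.77 against 62.9 and 23.6, and to 4.65 against 17.6 and 12.6. Papilla markers (Corin, Alpl, Rspo3 and others) were highest there too, at 956 FPKM against 472 and 409 in stem cells and 3067 against 552 and 1014 in papilla. Stem cell and papilla sums thus overlapped. Of the 17 papilla markers, all tested, 3 were higher in papilla than in stem cells and 0 lower, beside 2.31% and 6.38% of all genes. Corin averaged 90.9 ± 25.1 FPKM in stem cells and 54.9 ± 23.2 in papilla (adjusted p = 0.365). Rspo3 averaged 6.39 ± 1.33 and 98 ± 87.9 (adjusted p = 0.00223). The part of the cells marked by these lists in the factors' levels was not tested.

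Genes most like each factor were ranked by Pearson's r of log2(FPKM + 1) over the 12 libraries, which share population and composition, so r is a description. Tbx15 was tracked by Zcchc24 (0.993), Cped1 (0.991) and Vim (0.99), Twist1 by Islr (0.993), Ebf1 and En1 (both 0.988), and Twist2 by Srpx (0.988), Parp3 and Snapin (both 0.985). Snapin was listed at 0 in all 6 sheath and interfollicular libraries. Tbx18 was closest to Wisp1 (0.976), Cys1 and Tmem119, Alx4 to Cyp26b1 (0.981), Cacna1g and Lepr, and Sox2 had high values with Fgf10 (0.942) and Thsd7a (0.936). Prdm1 was closest to Clca2 (0.963), Il34 and Serpinb2, and Sox18 to Traf5 (0.946), Fam189a2 and Tuba1a. Trps1 had 0.849 with Dnajc24. Among the factors themselves r was highest for Tbx15 with Twist2 (0.963) and Tbx15 with Tbx18 (0.952), and lowest for Sox18 with Trps1 (-0.128).

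Related factors did not all follow the 9. Of the other paired-type homeobox genes 4 of 12 were tested, and 3 were higher in the 6 stem cell and papilla libraries. Prrx1, a regulator of limb and skin mesenchyme, averaged 92.9 ± 22.3 FPKM in stem cells, 55.9 ± 23 in papilla, 5.05 ± 2.99 in sheath and 4.68 ± 0.842 in interfollicular dermis. Prrx2 averaged 46.9 ± 22.4, 11.4 ± 3.59, 0.853 ± 0.475 and 1.60 ± 0.425 in the same order, and was lower in papilla than in stem cells (-1.89, adjusted p = 0.00563). Shox2 averaged 12.3 ± 4.61 and 12.9 ± 7.23 in the first pair.

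Most other Sox genes that were tested were lower in stem cells and papilla. Of 9 tested (of 17), 6 were lower in the stem cell and papilla libraries and none was higher, and with median-of-ratios scaling 6 of 10 were lower and 2 higher. Sox4 averaged 11.2 ± 1.93 FPKM in stem cells, 6.73 ± 0.464 in papilla, 47.3 ± 16.5 in sheath and 35 ± 18.2 in interfollicular dermis. Sox21, a factor of hair shaft epithelium, averaged 0.679, 1.11, 5.15 and 26.1 in that order, and Sox9, a factor of follicle epithelium, 7.92, 9.02, 22.5 and 26.2.

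Among 15 other T-box genes 4 were tested, and only Tbx1 differed. It averaged 5.34 ± 1.75 FPKM in stem cells, 0.945 ± 0.631 in papilla, 21.7 ± 11.4 in sheath and 5.55 ± 1.43 in interfollicular dermis, and was lower in papilla than in stem cells (-1.73, adjusted p = 0.0136). Of 10 tested E-protein partners of Twist and factors of epithelial to mesenchymal transition (of 14), 4 were higher in the stem cell and papilla libraries and 4 lower. Snai1 averaged 28.5 ± 3.71, 12.3 ± 4.77, 2.28 ± 0.292 and 1.09 ± 0.957 FPKM in stem cells, papilla, sheath and interfollicular dermis, and Zeb2 22.9 ± 3.99, 29.7 ± 10.6, 3.70 ± 3.03 and 5.12 ± 1.88. The E-protein gene Tcf3 was lower (-1.14, adjusted p = 0.00049) and its relative Tcf4 higher (0.79, adjusted p = 0.00264).

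Of 8 tested PRDM genes (of 14), Prdm8 was the one higher in papilla than in stem cells (1.31, adjusted p = 0.0102), at 1.98 ± 0.73 against 0.173 ± 0.0629 FPKM. It reached 1 FPKM, and so entered the test, through the papilla libraries alone. Of 22 tested dermal transcription factors (of 27), 15 were higher and 3 lower in the stem cell and papilla libraries. Osr2, an odd-skipped factor of mesenchyme, averaged 17.6 ± 2.16 FPKM in stem cells, 39.6 ± 9.88 in papilla, 0.982 ± 0.761 in sheath and 1.33 ± 1.31 in interfollicular dermis. Within the first pair of populations 7 of the 22 were lower in papilla (Foxd1, Foxd2, Foxs1, Hic1, Runx1, Runx2 and Zfp423), beside 6.38% of all genes. Only 1 was higher (Meox2, 12.4 ± 3.75 against 3.78 ± 1.54 FPKM, adjusted p = 0.0256), beside 2.31%. With quantile normalization 4 were lower and 3 higher, and with median-of-ratios scaling 5 and 3. A pseudocount of 0.1 gave 3 lower and 0 higher, and leaving out the low-value filter 5 and 0, so the Meox2 call was lost in both.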

How the data were processed

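RNA was captured with an mRNA bead kit and sequenced as SOLiD libraries, per the labels' protocols. The authors deposited FPKM values, 1 column per library. TopHat2 2.0.13, SAMtools, Cufflinks 2.2.1 and build mm10 are listed without roles, per the submitters' processing notes; the annotation is not given in the sources used here. From these values, log2(FPKM + 1) was fitted with limma 3.58.1 (R 4.3.3) as 4 population means over 12 libraries, with trended empirical Bayes (8 residual and 4.61 prior degrees of freedom), two-sided, with Benjamini-Hochberg adjustment over all 12774 tested genes and a threshold of 0.05. The model was tested on simulated data. Genes under 1 FPKM in all but 2 or fewer libraries were left out. Beside the 9 factors, the text names up to 4 genes per list by F statistic, the 3 genes most like each factor (a few named by these rules are not reported here), and others that a count turns on, chosen after their values were seen. The factors and lists were chosen with earlier results of these data known. Replicate numbers pair stem cells with papilla by the data (each correlation over 0.1), not by the labels. Promoters are RefSeq's (GRCm38.p6). Alternatives were another pseudocount, no filter, a replicate block, 2 scalings and leaving out each library. Of the marker lists, those for pericytes (6.71 to 82.7 FPKM summed per library), melanocytes (29.8 to 978), Schwann cells (12.7 to 138), hair matrix (101 to 1202) and sebocytes (2.71 to 47.9) are not discussed by gene beyond the text.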

Additional observations from a re-analysis of the deposited data

How the results depend on the processing

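Counts of factors called were recomputed under each alternative. The 8 factors higher in the stem cell and papilla libraries were 8 under every alternative run, and the 7 higher in papilla than in interfollicular dermis were 7. Leaving out 1 library gave 7 to 8 by the F test, 6 to 8 higher in papilla than in sheath, 6 to 8 higher in stem cells than in sheath and 5 to 7 higher in stem cells than in interfollicular dermis. For papilla against stem cells the 1 higher factor became 0 to 1 and the 3 lower ones 0 to 3 on leaving out a library, with 1 without stem cell replicate 1 or papilla replicate 1 and 0 without stem cell replicate 4. Without papilla replicate 2 it was 2, Twist2 and Sox18, with Tbx15 and Tbx18 lost. The 3 lower became 0 with a pseudocount of 0.1, 0 with median-of-ratios scaling, 0 with quantile normalization and 1 without the low-value filter, and were 3 with the block within these libraries. With the replicate block over all libraries, 1 factor (Trps1) became lower in stem cells than in interfollicular dermis, from 0. That block takes sheath replicate 5 and interfollicular replicate 6 out of the contrasts in effect. The cause of these changes was not tested.

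Of the single-factor values under alternatives 1166 kept direction and call, 43 lost the call, 9 gained it and 15 changed sign, none of them called. The sign changes were Trps1 for papilla against stem cells (-0.21 without papilla replicate 4, up to 0.994 on leaving out others), Trps1 for papilla against interfollicular dermis (0.16 with median-of-ratios scaling, 0.046 with quantile normalization, 0.32 without papilla replicate 1, 0.006 without interfollicular replicate 1, down to -0.885 without papilla replicate 4), Trps1 for the 6 against 6 libraries (-0.16 with the replicate block, -0.10, -0.28, -0.04 and -0.006 without stem cell replicate 4, papilla replicate 4, sheath replicate 1 and interfollicular replicate 6), Sox18 for papilla against interfollicular dermis (-0.48 without papilla replicate 2, -0.26 without interfollicular replicate 1, up to 0.586), Prdm1 for stem cells against interfollicular dermis (-0.14 without stem cell replicate 4 or interfollicular replicate 2, up to 0.109) and Sox2 for sheath against interfollicular dermis (0.024 with quantile normalization).

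Over all genes, the 1110 called between papilla and stem cells became 465, 570 and 657 without stem cell replicates 1, 2 and 4. The 289 called between sheath and interfollicular dermis became 98 to 426 on leaving out a library and 150 with the replicate block. The share of calls higher in the first group moved, with median-of-ratios scaling, from 26.6% to 47.3% (papilla against stem cells), 32.9% to 52.1% (against sheath), 32.3% to 53% (against interfollicular dermis), 44.6% to 55.3% (stem cells against sheath) and 38.2% to 52.5% (6 against 6). Quantile normalization gave 49.1% and 43.4% for papilla against stem cells and interfollicular dermis. Absolute depth is unknown, which limits factors near 1 FPKM such as Sox2 and Tbx18 most.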
